A study of Homo sapiens with 8 samples.

Results

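This report describes FLI1 occupancy at the promoters of 10 genes of G1/S control, CDKN1B, E2F1, E2F2, E2F3, E2F4, E2F7, E2F8, TFDP1, TFDP2 and RB1, among 20162 protein coding genes of the annotation. The genes were chosen by name for their role, with earlier results of these data known, and not by a cut on their values. FLI1, an ETS family transcription factor, was mapped by ChIP-Seq in a pair of lymphoma lines, OCI-Ly1 and VAL, both derived from diffuse large B cell lymphoma (DLBCL) of the germinal center B cell type (GCB). Each line was immunoprecipitated in 2 replicates with a rabbit polyclonal antibody to FLI1, no treatment is given in the labels, and 4 samples of input DNA stood beside them and were not analysed here. The authors deposited 1 list of peaks per FLI1 library. Each group is therefore a single line, and the lists hold no condition in which FLI1 was reduced.

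Cells leave G1 when cyclin-dependent kinases phosphorylate the retinoblastoma protein RB1, which then lets go of E2F factors that sit on DNA with a DP partner. E2F1, E2F2 and E2F3 are known as activators of S phase genes, E2F4 mainly as a repressor that works with the pocket proteins, and E2F7 and E2F8 as repressors that bind DNA without a DP partner. TFDP1 and TFDP2 encode the DP partners, and CDKN1B encodes p27, an inhibitor of cyclin E and CDK2. ETS factors such as FLI1 recognise a GGAA core, often in the longer form CCGGAA, and germinal center B cells are among the fastest dividing cells of the body.

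For each gene, the best promoter peak of a library was the listed peak with the highest -log10 q whose centre lay within 3 kb of any transcription start site (TSS) of the gene. The q is the p-value of the authors' peak caller after its correction for multiple peaks. A peak was called passing at a -log10 q of at least 3, that is a q of at most 0.001. The study's methods name the same number as the false discovery rate of peaks called with HOMER. The deposited lists have the form of another caller, so the passing peaks are not the study's own set of peaks. The caller's fold and p-value gave back, for every summit, the number of reads and the local background, and exact Poisson 95% intervals are given for the reads, which cover counting error only.

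OCI-Ly1 replicate 1 was not used, since 33 of its 37 intervals are longer than 1 Mb, and below OCI-Ly1 stands for replicate 2 of that line and VAL rep1 and VAL rep2 for the VAL replicates. The other 3 libraries differed in depth of calls, with 5354 passing peaks in OCI-Ly1, 973 in VAL rep1 and 6474 in VAL rep2. The weakest passing peak had 6 reads in OCI-Ly1 and VAL rep2 and 8 reads in VAL rep1, with medians of 8, 8 and 17. A gene without a passing peak is one whose listed peaks, if any, stayed below the threshold, and absence of FLI1 there is not shown. The reads of different libraries were not scaled to each other, and read totals were not used, so levels were not compared between lines.

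FLI1 peaks passed at the promoters of 6 of the 10 genes in at least 1 library, E2F1, E2F3, E2F4, E2F8, TFDP1 and RB1, against 27.4% of protein coding genes. Only E2F3, of these 10 genes in the 3 libraries, passed in both cell lines, while 12.6% of protein coding genes did. In OCI-Ly1 the count was 3 of 10 (E2F3, E2F4 and TFDP1), beside 19.0% of protein coding genes. In VAL rep2 the count was 4 of 10 (E2F1, E2F3, E2F8 and RB1), beside 20.8%. In VAL rep1 none of the 10 passed, beside 3.14%, a share at which less than 1 gene in 10 would be called. CDKN1B, E2F2, E2F7 and TFDP2 had no passing promoter peak in the 3 libraries. With 10 genes, counts of 3 and 4 stand near the background shares. The 6 of 10 in at least 1 library is higher than its 27.4%, and it was 2 at a -log10 q of at least 5. The share of coding genes at that threshold was not computed. Nothing is read from these counts about the genes as a group.

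The sequences below are stretches of 30 bases of GRCh37 near the summits of the 6 genes with a passing peak, and of E2F7 as a gene without one, to show the ETS cores there. Each was chosen to hold a CCGGAAG or, where none lay within 50 bp of the summit, the most copies of GGAA on a strand and of E2F words in 30 bases, so a single GGAA nearer to the summit can lie outside it, as in E2F3 at 24.5 bp from the OCI-Ly1 summit. They are written 5′ to 3′ on the strand given, and capitals mark GGAA or the longer CCGGAAG on that strand, and in RB1 also an E2F word, TTTCCCGC. The RB1 stretch is from the OCI-Ly1 peak, which did not pass. No GGAA lay within 50 bp of the passing RB1 summit of VAL rep2.
E2F3, upstream of its downstream start (chr6:20403624-20403653, minus strand): GGAAGGAAggggcaaggggagaggcgggtc
E2F4, at its main start (chr16:67226056-67226085, plus strand): ccaGGAAcGGAAgcGGAAgtggcggcggcg
E2F4, at the end of the gene (chr16:67232409-67232438, plus strand): GGAAgggtggggtGGAActgggcacatgcc
TFDP1 (chr13:114239611-114239640, plus strand): gtgacaggcgcgcggcgcggaccCCGGAAG
E2F1 (chr20:32273260-32273289, minus strand): GGAAgtgaaggcggggcggaGGAAagtcct
E2F8 (chr11:19262617-19262646, plus strand): CCGGAAGcgggcctgcgattggccgacggc
RB1, at the summit of OCI-Ly1 (chr13:48877840-48877869, plus strand): acgccgcgggcGGAAgtgacgtTTTCCCGC
E2F7, at the summit of OCI-Ly1 (chr12:77459541-77459570, minus strand): ccgggcccgaggtttccaggtacCCGGAAG

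**Figure D1:**
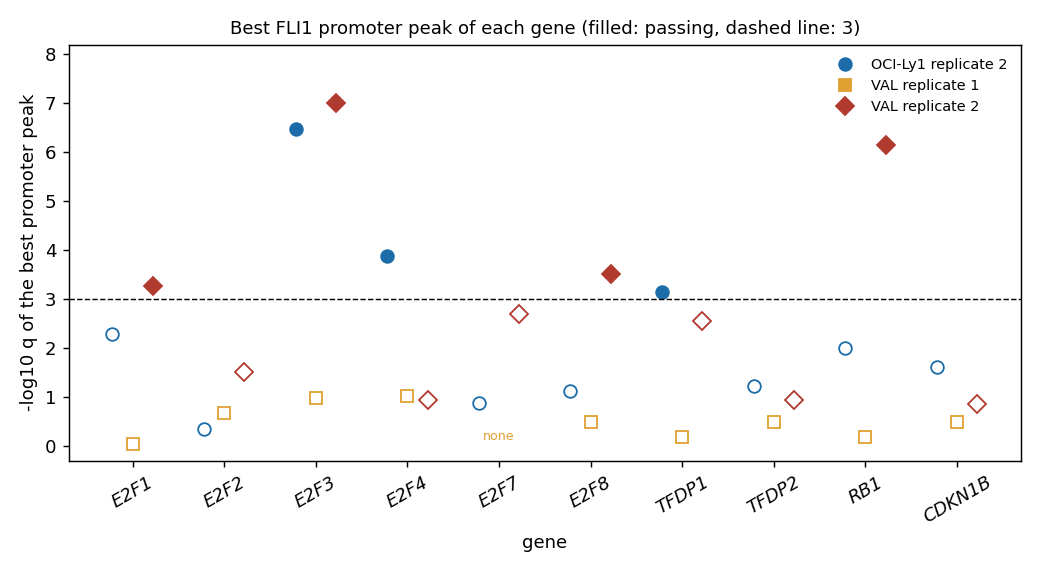
The -log10 q of the best promoter peak (vertical axis) is plotted for each of the 10 genes (horizontal axis) in 3 FLI1 libraries, with filled symbols for passing peaks and a dashed line at 3. E2F3 lies above the line in OCI-Ly1 and VAL rep2, and every symbol of VAL rep1 lies at 1.02 or below, with no peak listed for E2F7.

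E2F3, an activator E2F, had the strongest peaks of the 10 genes in OCI-Ly1 and in VAL rep2. The gene (ENSG00000112242, chr6:20402110-20493945, plus strand) has 2 annotated starts, at 20402110 and 20403910, and the downstream one lies in the first intron of the longer form and gives the shorter form known as E2F3b. In OCI-Ly1 the peak at chr6:20403124-20404515 had a -log10 q of 6.47, a fold of 7.09 and 9 reads (4.12 to 17.1) over a background of 0.410. In VAL rep2 the peak at chr6:20401849-20404159 had a -log10 q of 7.0, a fold of 7.36 and 9 reads over 0.359. Both summits were intronic and lay upstream of the downstream start, by 288 bp and 355 bp, and were 67 bp apart. The VAL peak spanned both starts and the OCI-Ly1 peak only the downstream one, and they shared 1036 bp, which is 44.8% of the longer peak. In VAL rep1 the best peak also had 9 reads, but over a background of 1.94, and its -log10 q was 0.98, with the summit 578 bp upstream of the same start. Equal read numbers thus passed in the libraries with the lower local background and did not pass in VAL rep1. Of all protein coding genes, 9.35% had a best peak as strong or stronger in OCI-Ly1, 13.3% in VAL rep1 and 8.55% in VAL rep2, so E2F3 was in the upper range of its libraries and far from their highest peaks.

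E2F1, an activator of S phase entry that can also drive apoptosis, passed in VAL rep2. The gene (ENSG00000101412, chr20:32263283-32274191, minus strand) has 1 annotated start. The VAL rep2 peak at chr20:32272945-32273435 had a -log10 q of 3.27, a fold of 5.20 and 7 reads (2.81 to 14.4) over 0.538. In OCI-Ly1 the best peak had a -log10 q of 2.28, a fold of 4.45 and 5 reads (1.62 to 11.7) over 0.349. The summits of these 2 libraries lay 36 bp apart in an E2F1 intron, 928 bp and 892 bp downstream of the start. The same intronic position was thus listed in both lines, on either side of the threshold. Counts of 7 and 5 reads, not scaled between the libraries, cannot tell whether occupancy there differed. VAL rep1 listed a different position, 974 bp upstream, with a -log10 q of 0.04 and 6 reads over 2.18. The call rests on the width of the promoter window, because the centre of the VAL rep2 peak is 1001 bp from the start and the best -log10 q within 1 kb was 0.95, from 3 reads at a summit 9 bp from the start.

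E2F2, the other activator of the group, had no passing promoter peak. The gene (ENSG00000007968, chr1:23832930-23857725, minus strand) has 2 annotated starts. Its best -log10 q was 0.34 from 2 reads in OCI-Ly1, 0.68 from 7 reads over 1.43 in VAL rep1, and 1.51 from 4 reads in VAL rep2, where the summit lay 338 bp upstream of the start at 23857725. A peak did pass inside the gene in VAL rep2, at chr1:23851250-23851867 in an intron, with a -log10 q of 3.20, a fold of 5.11 and 6 reads. Its centre lay 5671 bp from the nearest start, outside the promoter window.

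E2F4, the E2F best known for repression in resting cells, passed in OCI-Ly1 at both ends of the gene (ENSG00000205250, chr16:67226058-67232821, plus strand, with 13 annotated starts). The higher of the peaks, at chr16:67231756-67232681, had a -log10 q of 3.89, a fold of 5.61 and 7 reads (2.81 to 14.4) over 0.426. Its summit was in an E2F4 UTR, 2872 bp from the nearest E2F4 start and 588 bp from a start of ELMO3, the neighbouring gene, so it lay nearer to ELMO3 than to an E2F4 start. The other peak, at chr16:67225892-67226380, had a -log10 q of 3.69, a fold of 5.48 and 7 reads over 0.459, and its summit lay 6 bp from the E2F4 start at 67226077. At that main start VAL rep1 had a summit 27 bp away with 9 reads over 1.84 and a -log10 q of 1.02, and VAL rep2 had a summit 11 bp away with 3 reads and a -log10 q of 0.51. VAL rep2 was no higher elsewhere than 0.95, from 3 reads (0.619 to 8.77) near the ELMO3 side. Both VAL libraries therefore listed a summit within 30 bp of the OCI-Ly1 one at the main start, and it passed in OCI-Ly1 alone of the 3 libraries.

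E2F8 and E2F7, the atypical repressors, fell on different sides of the threshold in VAL rep2. E2F8 (ENSG00000129173, chr11:19245610-19263167, minus strand, 4 starts) passed there at chr11:19262423-19264901 with a -log10 q of 3.51, a fold of 5.28 and 6 reads (2.20 to 13.1) over 0.326. In OCI-Ly1 its best peak had a -log10 q of 1.12 and 5 reads over 0.717, and in VAL rep1 one of 0.50 and 4 reads at another start. The summits of OCI-Ly1 and VAL rep2 were 45 bp apart, 108 bp and 153 bp upstream of the E2F8 start at 19262492, in an intron of a longer E2F8 transcript and of the antisense gene CSRP3-AS1. The nearly equal read numbers of the 2 libraries stood over backgrounds of 0.717 and 0.326, and the smaller background went with the passing call.

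E2F7 (ENSG00000165891, chr12:77415028-77459349, minus strand, 6 starts) was just below the threshold in VAL rep2, with a -log10 q of 2.70, a fold of 4.83 and 6 reads over 0.448, at a summit 54 bp downstream of a start and in its UTR. OCI-Ly1 had a -log10 q of 0.87 and 4 reads (1.09 to 10.2) at a summit 220 bp upstream, and VAL rep1 listed no peak in the window. The summits of OCI-Ly1 and VAL rep2 were 293 bp apart. The closest passing peak lay 30560 bp from an E2F7 start in VAL rep2 and 490858 bp away in OCI-Ly1.

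TFDP1, which encodes the DP protein that pairs with most E2F factors, had listed summits of all 3 libraries within 50 bp of an annotated start. The gene (ENSG00000198176, chr13:114239036-114295788, plus strand) has 8 starts. In OCI-Ly1 the peak at chr13:114239012-114239992 passed with a -log10 q of 3.14, a fold of 5.14 and 7 reads (2.81 to 14.4) over 0.557, 30 bp from a start and in the UTR. VAL rep2 had a -log10 q of 2.56, a fold of 4.58 and 5 reads (1.62 to 11.7) over 0.311, with its summit 43 bp from that of OCI-Ly1. In VAL rep1 the -log10 q was 0.18, from 6 reads over 1.67. OCI-Ly1 and VAL rep2 thus lay on either side of the threshold at the same position, and counts of 7 and 5 reads cannot tell whether occupancy differed.

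TFDP2, the gene of the other DP partner, had the most starts of the 10 genes, 21 over chr3:141663270-141868386 on the minus strand (ENSG00000114126), and still no passing peak. The best -log10 q was 1.22 from 4 reads in OCI-Ly1, 0.50 from 6 reads over 1.17 in VAL rep1 and 0.95 from 3 reads in VAL rep2, each at a different position. No passing peak lay in the gene or in 10 kb on either side of it in any of the 3 libraries, where 62, 24 and 85 weaker peaks were listed. The closest passing peaks to a TFDP2 start were 87623 bp, 3048069 bp and 166263 bp away.

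RB1, the retinoblastoma gene that restrains the E2F factors, passed in VAL rep2 with the second highest -log10 q of the 10 genes in that library. The gene (ENSG00000139687, chr13:48877880-49173572, plus strand, 8 starts) had its peak at chr13:48877413-48878556, with a -log10 q of 6.15, a fold of 6.90 and 9 reads (4.12 to 17.1) over 0.448. The summit was 74 bp downstream of the RB1 start at 48877911 and 129 bp from a start of RB1-DT, a long non-coding RNA read in the opposite direction, and the peak spanned the RB1 starts at 48877880 and 48877911. In OCI-Ly1 the best peak was at chr13:48877750-48877955, with a -log10 q of 2.0, a fold of 4.34 and 6 reads (2.20 to 13.1) over 0.615. Its summit was 31 bp upstream of RB1, 7 bp from a start of RB1-DT and 136 bp from the VAL summit. In VAL rep1 the best peak of the window was at an internal start, with a -log10 q of 0.18 and 3 reads, and within 1 kb of a start of a protein coding transcript it was 0.04 from 5 reads over 1.67. The shared start region was therefore listed in both lines, and 6 reads in OCI-Ly1 and 9 in VAL rep2 cannot tell whether occupancy there differed.

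A further passing peak of VAL rep2 lay inside RB1 at chr13:48990344-48990635, with a -log10 q of 4.11, a fold of 5.72 and 7 reads. It was in an RB1 intron that holds LPAR6, a lysophosphatidic acid receptor gene, 501 bp from an LPAR6 start and 28511 bp from the nearest RB1 start. OCI-Ly1 had a summit 27 bp away with 4 reads and a -log10 q of 1.36.

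CDKN1B, the p27 gene, had no passing promoter peak. It spans chr12:12838432-12875303 on the plus strand (ENSG00000111276) with 8 starts, of which the one at 12870302 begins protein coding transcripts. Around that start OCI-Ly1 had a -log10 q of 1.5 from 4 reads over 0.344, 420 bp upstream, and VAL rep2 had 0.85 from 4 reads over 0.717, 379 bp upstream and 41 bp from the OCI-Ly1 summit, while VAL rep1 listed nothing within 1 kb. Over all starts the best values were 1.61 in OCI-Ly1, at an upstream start and 1869 bp from a start of GPR19, and 0.50 in VAL rep1. Beyond the gene, VAL rep2 had passing peaks at chr12:12876971-12877351 (-log10 q 4.15, fold 5.73, 7 reads) and chr12:12877703-12878743 (-log10 q 3.47, 7 reads). Their summits lay 6332 bp and 7471 bp from the nearest CDKN1B start, and 1724 bp and 585 bp from a start of APOLD1, the next gene. The start nearest to the first of these summits was that of the long non-coding RNA ENSG00000256658, at 182 bp. Both peaks were outside the promoter window of CDKN1B.

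**Figure D2:**
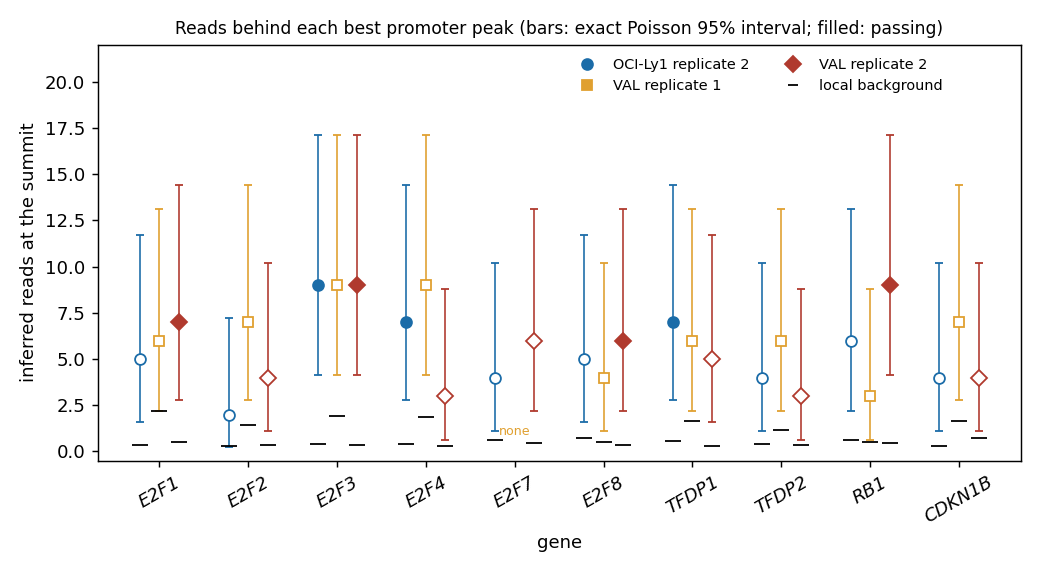
Inferred reads at the summit of the best promoter peak (vertical axis) are plotted for each gene (horizontal axis) in 3 libraries, with exact Poisson 95% intervals as bars, black dashes for the local background and filled symbols for passing peaks. Passing peaks rest on 6 to 9 reads, and symbols of VAL rep1 with 9 reads stay open at E2F3 and E2F4, where its background is 1.94 and 1.84.

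The passing best peaks of the 10 genes rested on 6 to 9 reads. Those of OCI-Ly1 had -log10 q values of 3.14 to 6.47, with a median of 5.62 over all its passing promoter peaks, and those of VAL rep2 had 3.27 to 7.0, with a median of 5.18. The genes closest to the threshold were TFDP1 (3.14, passing) and E2F1 (2.28, not passing) in OCI-Ly1, and E2F1 (3.27, passing) and E2F7 (2.70, not passing) in VAL rep2. Over all 10 genes the median best -log10 q was 1.81 in OCI-Ly1, 0.50 in VAL rep1 and 2.63 in VAL rep2, beside 1.22, 0.18 and 1.64 over protein coding genes. In each library an increase in the number of starts widens the searched window, and of coding genes with more than the median of 5 starts 25.6%, 4.17% and 28.1% were called, against 12.8%, 2.17% and 14.0% of the others. Of the 4 genes with at most 5 starts (E2F1, E2F2, E2F3 and E2F8), 1 was called in OCI-Ly1 and 3 in VAL rep2, and of the 6 with more, 2 and 1 were called.

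**Figure D3:**
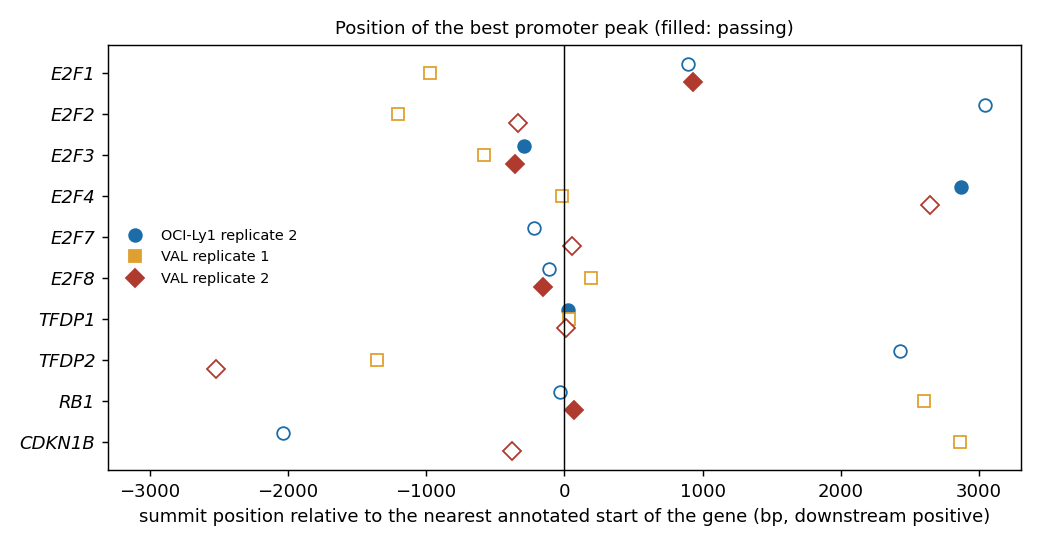
Summit position of each best promoter peak relative to the nearest annotated start of its gene (horizontal axis in bp, downstream positive) is plotted for the 10 genes (vertical axis) in 3 libraries, with filled symbols for passing peaks. The passing summits of TFDP1, RB1, E2F8 and E2F3 lie within 355 bp of a start, that of E2F1 lies 928 bp and that of E2F4 2872 bp downstream.

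The genes differed in how close the summits of the lines lay to each other. In E2F1, E2F3, E2F8 and TFDP1 the best summits of OCI-Ly1 and VAL rep2 lay 36, 67, 45 and 43 bp apart, and in RB1 136 bp apart. They lay 223 bp apart in E2F4 and 293 bp apart in E2F7, and 22675, 15215 and 4950 bp apart in CDKN1B, E2F2 and TFDP2, genes in which neither library passed. In CDKN1B and E2F2 these best peaks were at different starts. Around the protein coding start of CDKN1B, weaker or equal listed summits of OCI-Ly1 and VAL rep2 lay 41 bp apart. Among the 3 genes called in OCI-Ly1, VAL rep2 listed a summit within 100 bp at E2F3, TFDP1 and the main start of E2F4, though not at its higher peak, and over all passing promoter peaks of the library this was so for 67.7%. Of the 4 genes called in VAL rep2, OCI-Ly1 listed one at E2F1, E2F3 and E2F8 and not at RB1, beside 64.8% over all. These shares include listed peaks of any strength, so they describe position and not a call in the other line. Passing promoter peaks in general had a median distance from summit to the nearest start of any gene of 62 bp in OCI-Ly1 and 81 bp in VAL rep2. Measured to their own starts, TFDP1 and RB1 lay within these distances, and the passing summits of E2F3, E2F1, E2F8 and the higher E2F4 peak lay farther out. That E2F4 peak lay farther out also by its 588 bp to a start of ELMO3.

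Each summit was searched for the ETS core over 50 bp to either side, on both strands. Of the 7 passing best peaks, 2 held CCGGAAA or CCGGAAG, TFDP1 in OCI-Ly1 at 19 bp and E2F8 in VAL rep2 at 25 bp, beside 45.5% and 38.6% of all passing promoter peaks of these libraries. The shorter GGAA, which is contained in both, was found at 6 of the 7, all except RB1 in VAL rep2, beside 86.6% and 83.9%. At the main start of E2F4 the 3 GGAA copies printed above lay 10.5, 5.5 and 0.5 bp from the summit. E2F7 had CCGGAAG 25 bp from its OCI-Ly1 summit with 4 reads, and E2F8 had the same word 20 bp from its OCI-Ly1 summit, so the word was also present under peaks that did not pass. A match of letters is a description and shows no binding by itself.

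Words of the E2F site (TTTCCCGC, TTTCGCGC, TTTGCCGC and TTTGGCGC, both strands) were sought in the same windows, since E2F genes are known targets of E2F factors. TTTGGCGC lay 45.5 bp from the E2F8 summit of VAL rep2, and TTTCCCGC lay 16.5 bp from the RB1 summit of OCI-Ly1, where it overlaps a GGAA on the other strand. The E2F2 summit of VAL rep2, which did not pass, had such a word at 21.5 bp. Over all passing promoter peaks 1.72% held one in OCI-Ly1 and 2.08% in VAL rep2. In RefSeq promoters of GRCh38.p14 (250 bases before and 50 after a start), 9 of the genes had 12 entries, E2F8 having none. An E2F word was in 4 of the 12, those of E2F1, E2F2, TFDP1 and 1 of E2F3, and CCGGAAA or CCGGAAG was in 2, those of E2F2 and E2F7, beside 4.13% and 16.9% of 21579 promoters. Of 70 promoters of the other G1/S genes described below, 15 (21.4%) held an E2F word and 12 (17.1%) held CCGGAAA or CCGGAAG. The RB1 entry is an internal start, so its main start was not covered by this search.

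Of 54 other genes of the pathway, 19 (35.2%) passed in OCI-Ly1, 4 (7.41%) in VAL rep1 and 17 (31.5%) in VAL rep2, beside the 19.0%, 3.14% and 20.8% of protein coding genes given above. In both lines 11 passed (20.4%), beside 12.6% of protein coding genes. Some of them, such as CCND3 and LIN54, passed at different starts in the lines. These genes were listed by role, with earlier results of these data known, so their shares are a description and do not place the 10 genes within the pathway. When only the gene with the closest start was counted, 16 passed in OCI-Ly1, 2 in VAL rep1 and 14 in VAL rep2. The shares of protein coding genes were not matched for the number of starts, and coding genes with more starts were called more often.

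Of the remaining family members E2F5, E2F6 and TFDP3, E2F5 passed in all 3 libraries, which none of the 10 genes did. E2F5, a partner of the pocket proteins, reached a -log10 q of 14.63 in OCI-Ly1, 12.53 in VAL rep1 and 57.05 in VAL rep2, from 16, 22 and 42 reads, at a summit 2522, 2522 and 2511 bp from its nearest start. E2F6 and TFDP3 did not pass, with highest values of 1.05 and 0.95. The 42 reads at E2F5 and the 9 at E2F3 in VAL rep2 have intervals that do not overlap (30.3 at the lower end against 17.1 at the upper end), so within that library the E2F3 peak was the weaker beyond counting error.

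Among 7 pocket protein and DREAM complex genes, 4 passed in OCI-Ly1 and 4 in VAL rep2. RBL2, which encodes the pocket protein p130 that binds E2F4, passed in both (10.52 and 6.56). LIN54, the DNA-binding subunit of DREAM, also passed in both (3.72 and 4.23), at different starts. RBBP4, a histone chaperone of the complex, passed in VAL rep2 (4.87) and had 2.20 in OCI-Ly1 at a different start.

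Among 10 cyclin and kinase genes with CDC25A, 1 passed in OCI-Ly1 and 3 in VAL rep2. CCND3, the cyclin D gene most used by germinal center B cells, passed in both (3.09 and 6.73) at different starts, and CCNE2, an E-type cyclin gene, passed in VAL rep2 (6.07). CCND2 had 3.10 in VAL rep2, with a start of CCND2-AS1 nearer to the summit, at 384 bp. Of 6 other CDK inhibitor genes, relatives of CDKN1B, 2 passed in OCI-Ly1 and 0 in VAL rep2. They were CDKN2A (3.38) and CDKN2D (4.46), the latter 151 bp from a start of KRI1 and 2797 bp from its own.

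The machinery that removes p27 and cyclin E was listed as 6 genes, of which 4 passed in OCI-Ly1 and 1 in each VAL library. FBXW7, which targets cyclin E, passed in OCI-Ly1 and VAL rep2 (12.84 and 3.27), and in OCI-Ly1 a start of the non-coding MIR4453HG was nearer to the summit, at 34 bp against 138 bp. SKP2, which targets p27, passed in OCI-Ly1 (7.54) and had 1.51 in VAL rep2. CKS1B, the cofactor of SKP2, had 6.48 in OCI-Ly1 and 3.23 in VAL rep1, with a start of SHC1 nearer to the summit in both, at 6 bp and 132 bp. CDKN1B itself reached no more than 1.61.

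Of 22 replication genes under E2F control, 7 passed in OCI-Ly1, 2 in VAL rep1 and 8 in VAL rep2. CDC45, a part of the replicative helicase, had 65.59, 42.08 and 68.84 from 41, 43 and 49 reads, with a start of UFD1 nearer to the summit in each library (29, 30 and 19 bp, against 226, 225 and 236 bp for CDC45). MCM7, a subunit of the same helicase, passed in all 3 libraries (11.45, 3.86 and 12.78). MCM4 passed in OCI-Ly1 and VAL rep2 (3.39 and 7.17) at different starts, with a PRKDC start 11 bp from the VAL rep2 summit.

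**Figure D4:**
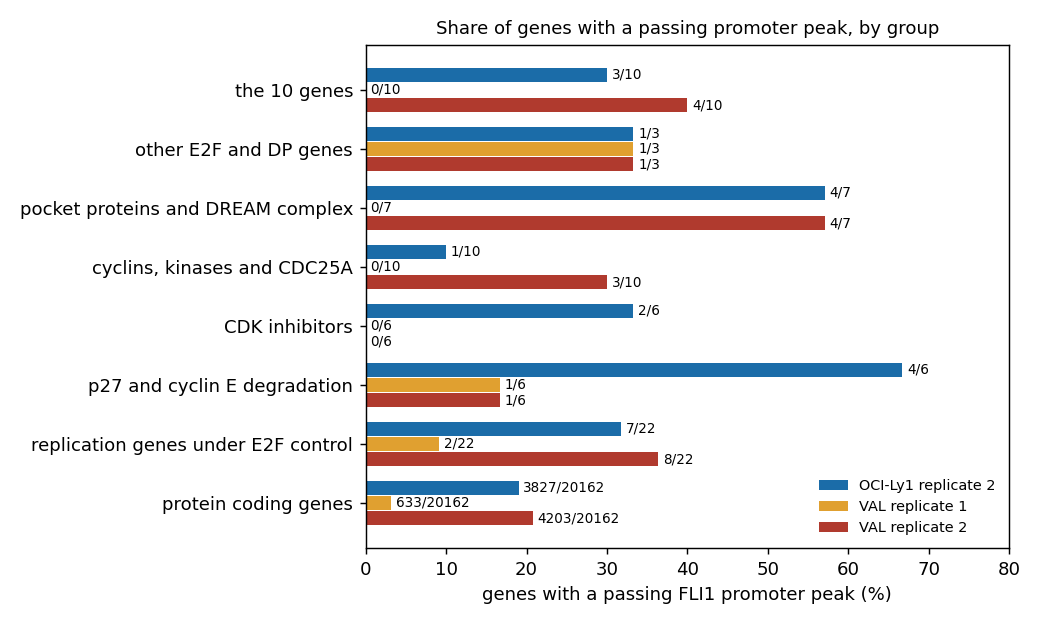
Bars give the share of genes with a passing promoter peak (horizontal axis, percent) for the 10 genes, 6 groups of other G1/S genes and all protein coding genes (vertical axis) in 3 libraries, with counts beside the bars. The 10 genes reach 3 of 10 in OCI-Ly1 and 4 of 10 in VAL rep2, where all coding genes reach 19.0% and 20.8%, and VAL rep1 has the shortest bar or none in every group except the other E2F and DP genes and the degradation genes.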

How the data were processed

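FLI1 ChIP-Seq peaks of 3 libraries were analysed, OCI-Ly1 replicate 2 and VAL replicates 1 and 2, each on its own. The reads had been aligned to GRCh37 by the authors, with bowtie2 in the paper's methods and BWA and CASAVA 1.4 in the submitters' processing notes, and filtered for duplicates, unique positions and a mapping quality of 10. The methods name HOMER for the peaks, while the deposited lists have the 10 columns that MACS2 writes, and the caller's control is not given in the sources used here. The deposited fold is the ratio by which the summit stood over its surroundings, as the authors' caller wrote it. The deposited -log10 p and -log10 q are the p-value and q-value of each summit by the authors' peak caller. The deposited score repeats the -log10 p on a scale 10 times larger and played no part here.

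The 10 genes and the 54 others were chosen with earlier results of these data known. All 10 genes are named, and of each other group the 3 called genes with the highest -log10 q in OCI-Ly1 replicate 2 or VAL replicate 2. TSS were those of GENCODE release 44 on GRCh37. Summit reads were solved for by taking the fold as (reads + 1) / (background + 1) and the p-value as that of a Poisson count, within 0.0005 on the -log10 scale, which succeeded for 99.944% to 100% of passing peaks. No test compared the lines, since OCI-Ly1 had 1 usable library and the lists are calls rather than amounts. Replicates may be technical, as nothing states separate cultures. On simulated data, reads were recovered for 19041 of 19056 peaks (99.92%). The tools were scipy 1.17.1, pandas 2.3.3, numpy 2.4.6 and matplotlib 3.10.9 under python 3.11.15.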

Additional observations from a re-analysis of the deposited data

How the results depend on the processing

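No paired analysis was possible because no result comes from a test and OCI-Ly1 has 1 usable library. The count of the 10 genes with a passing promoter peak depended mainly on the q-value threshold. With a -log10 q of at least 5 it was 1 in OCI-Ly1, 2 in VAL rep2 and 2 in any library, and with at least 2 it was 5 in OCI-Ly1 and 4 in both lines. With the top 5000 peaks of each library it was 2 in VAL rep2 and 3 in any library. It stayed at 0 in VAL rep1 under the 9 alternatives run. Leaving out 1 library at a time gave 3 to 6 in any library, the 3 without VAL rep2 and 4 without OCI-Ly1, and 0 to 1 in both lines, the 0 without VAL rep2. For the 54 other genes, at least 5 gave 10, 2 and 10 in the order OCI-Ly1, VAL rep1 and VAL rep2, at least 2 gave 27 in VAL rep2, and VAL rep1 had 2 when only the gene with the closest start was counted and 7 with the top 5000 peaks. Shares of protein coding genes were not computed under these alternatives, so the counts of genes above have no background beside them. The motif count of 2 of 7 became 6 with GGAA, 0 with CCGGAAGT and 0 of 3 among peaks at 5 or above. The E2F3 peak shared by the lines was not counted, giving 0, when 50% of both peaks had to overlap or when summits had to lie within 50 bp.

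Of 110 best -log10 q values recomputed with other windows or starts, 87 did not change and 108 stayed on the same side of the threshold. The exceptions were both E2F1 in VAL rep2, at 0.95 within 1 kb. A window of 1 kb around starts of protein coding transcripts was chosen after seeing the data. Passing peaks of the 10 genes rest on 6 to 9 reads, and the lowest number that passes in their libraries is 6. In VAL rep1, 9 reads at E2F3 and E2F4 did not pass over backgrounds of 1.94 and 1.84, and the part of depth and background in the missing calls was not tested.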
